A study of Mus musculus with 9 samples.

Results

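The lasting effect of neonatal tamoxifen on the adult uterus was examined by pooling the 6 uteri of mice dosed with tamoxifen as newborns and comparing them with the uteri of 3 control mice. Membership was read from the sample labels, and these 9 libraries are all 9 of the series. RNA of each whole uterus was sequenced and counted per gene. All mice were females killed at 13 weeks of age. Control mice were given solvent as newborns and, in adult life, vehicle (spelled vesicle in the labels). Mice of the tamoxifen group took tamoxifen by mouth at 1 mg/kg on days 1 to 5 after birth, then vehicle as adults. Mice of the tamoxifen+primidone group took the same neonatal tamoxifen and then, beginning in week 10, a daily injection of primidone (2 mg/kg) for 3 weeks. Each group held 3 mice, and the pooled contrast gave both dosed groups equal weight. The tissue is a mixture of epithelium, stroma, muscle, vessels and immune cells, so fewer cells of a type and less RNA per cell cannot be told apart in any result below. The hour of collection and the stage of the estrous cycle were not recorded in the labels used here.

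Tamoxifen is a selective modulator of estrogen receptors that acts as a partial agonist in the rodent uterus. In the newborn mouse the uterine glands, stroma and muscle layers are still forming, and exposure to estrogen receptor ligands at that age is known to leave changes in the adult organ. Neonatal dosing is widely used to model adenomyosis, the growth of endometrium into the muscle wall. The adult uterus also holds a peripheral circadian clock, a loop in which BMAL1 (gene Arntl) and CLOCK activate the Per, Cry and Nr1d genes, whose products then repress the activators.

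Library totals ran from 36393120 to 39958443 counts. Markers of uterine epithelium (Krt18), smooth muscle (Myh11), stroma (Vim) and the hormone receptors Esr1 and Pgr were present in every library. Within groups, the chi-square of paired counts divided by its degrees of freedom ranged between 19.57 and 78.47, well above the 1 of pure sampling, so each library was counted as a separate sample.

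A low-count filter passed 15186 of the 18094 genes, and these are called tested below. Of them, 277 (1.82%) were higher and 462 (3.04%) were lower in the 6 dosed uteri at a Benjamini-Hochberg adjusted p under 0.05 in edgeR. The change exceeded 2-fold for 84 of the higher and 135 of the lower genes, and 3507 genes had an unadjusted p under 0.05. All 6 dosed libraries lay above the 3 controls for 917 genes (6.04%) and below them for 997 genes (6.57%). Of the called genes, 259 higher and 412 lower ones were separated in this way, and for 68 the ranges overlapped. In 738 of the 739 called genes, both dosed groups lay on the called side of control, with Hgfac as the exception. Lower genes made up 62.52% of the calls, a split that DESeq2 (52.19%, 873 higher and 953 lower) and limma on log2 FPKM with a pseudocount of 1 (47.69%, 351 and 320) or of 0.1 (43.7%, 384 and 298) did not share. The median log2 fold change of all genes tested was 0.0045.

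**Figure D1:**
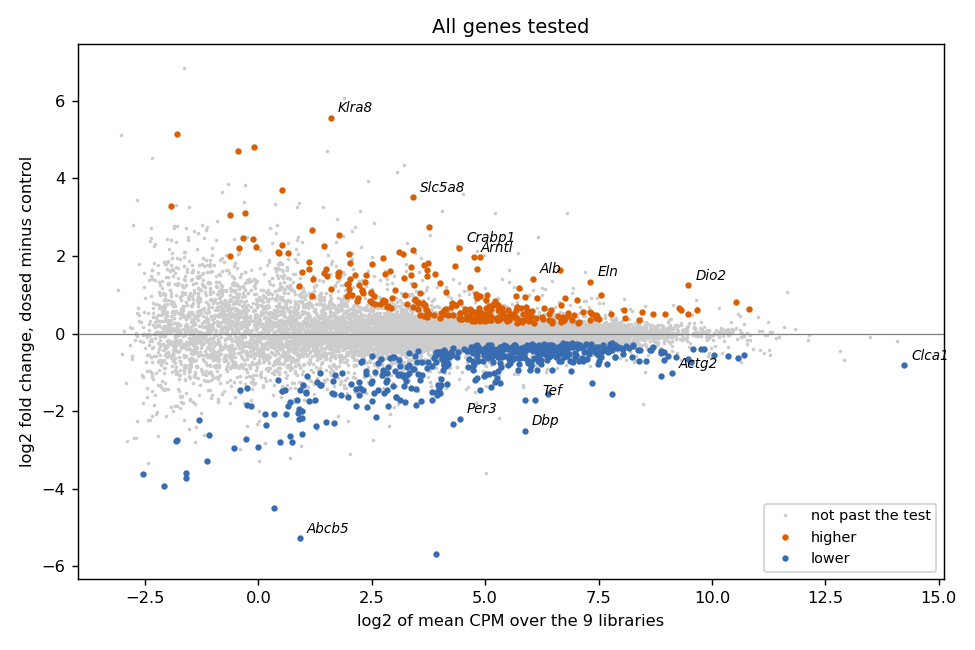
Log2 fold change of the 6 tamoxifen-dosed against the 3 control libraries (vertical axis) by log2 mean CPM over the 9 libraries (horizontal axis), with 1 point per gene tested. The 277 higher and 462 lower genes are coloured, and genes described in the text are named, among them Arntl among the higher and Dbp, Per3 and Abcb5 among the lower.

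The number of calls changed with the libraries included and fell furthest without a control. It fell from 739 to 118 without control 1, to 264 without control 2 and to 108 without control 3. Without tamoxifen 1, 2 and 3 it was 468, 656 and 482, and without tamoxifen+primidone 1, 2 and 3 it was 955, 559 and 756. Calls made with all 9 libraries and again with each of the 9 left out in turn numbered 76 (0.5% of genes tested), 20 higher and 56 lower. The core clock and clock output lists together held 10 of these 76 genes among their 34 tested members. The gene lists were chosen with earlier results of these data known. Setting list counts beside the shares of all genes, here and below, is therefore a description and not an independent test. The shares of 1.82% and 3.04% belong to the edgeR calls alone. Over all genes, 3507 of 15186 had an unadjusted p under 0.05, and DESeq2 called 873 higher and 953 lower of 15181. List counts of those kinds, given below, compare with these larger numbers.

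Clock genes differed between control and dosed uteri. The activators Arntl and Clock were higher, and most of the called repressors and output factors were lower. Of 16 tested core clock genes, 2 were higher and 8 were lower. Of 18 tested clock output genes, 2 were higher and 9 were lower, against 1.82% and 3.04% of all genes. Both lists were chosen with earlier results of these data known, so their excess over all genes is not independent evidence. The median log2 fold change of the core list was −0.64, with −0.72 for the tamoxifen and −0.71 for the tamoxifen+primidone group, each against the same 3 controls. Without control 1, 2 and 3, the core list kept 5, 6 and 6 lower and 1, 1 and 1 higher members, and the output list kept 4, 6 and 5 lower and 0, 1 and 2 higher ones. Without tamoxifen 3 the output list kept 1 higher member. Clock transcripts vary with the hour of the day, and since that hour is not recorded in the labels used here, the groups could not be compared at a matched hour and its part in these values was not tested.

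The promoters of called clock genes are shown for the elements that clock factors are known to bind, the E-box CACGTG of BMAL1 and CLOCK and the D-box TTANGTAA of DBP, TEF and HLF. Sequences are RefSeq promoters on GRCm38.p6, printed 5′ to 3′ on the gene's strand from near the element to the base before the transcription start, with the element in capitals. Ciart lies on the minus strand at chr3:95882229-95882368, Bhlhe41 on the minus strand at chr6:145865421-145865600, Tef on the plus strand at chr15:81802513-81802672 and Per3 on the minus strand at chr4:151044666-151044885. Ciart held 3 E-boxes, Bhlhe41 and Tef 1 each, and Per3 held 2 D-boxes. Tef has 2 RefSeq promoters, and 1 of them is shown.
Ciart: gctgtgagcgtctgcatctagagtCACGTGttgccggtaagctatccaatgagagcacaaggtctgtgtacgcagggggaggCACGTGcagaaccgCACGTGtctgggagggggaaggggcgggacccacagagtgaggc
Bhlhe41: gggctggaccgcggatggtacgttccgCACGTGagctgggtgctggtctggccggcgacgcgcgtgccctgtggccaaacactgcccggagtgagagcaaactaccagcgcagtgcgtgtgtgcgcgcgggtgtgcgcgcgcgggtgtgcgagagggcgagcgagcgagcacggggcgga
Tef: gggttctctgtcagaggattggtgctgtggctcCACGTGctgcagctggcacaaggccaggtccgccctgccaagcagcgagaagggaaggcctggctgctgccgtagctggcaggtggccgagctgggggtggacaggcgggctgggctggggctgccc
Per3: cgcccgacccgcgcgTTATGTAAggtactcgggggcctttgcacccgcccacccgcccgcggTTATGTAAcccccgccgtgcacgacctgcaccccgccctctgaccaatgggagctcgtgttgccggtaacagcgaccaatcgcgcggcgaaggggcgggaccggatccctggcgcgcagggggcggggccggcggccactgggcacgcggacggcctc
In the 250 bases before the start, searched on both strands, CACGTG was found in 7 of 28 clock list genes with a RefSeq promoter (25%), in 5 of the 17 called ones (29.4%) and in 6.86% of 27025 genes. TTANGTAA was found in 3 of 28 (10.7%) and in 2.44% of all genes. A match describes the letters in this window and is not evidence that a factor binds there.

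Arntl, which encodes the activator BMAL1, stood at 8.57, 8.41 and 10.6 CPM in the controls and from 31.1 to 42.7 CPM with a median of 35.6 in the dosed uteri. No dosed library came near a control, and the log2 fold change was 1.96 ± 0.12 (SE; edgeR adjusted p = 8.48e-05). Its partner Clock was at 52.9, 51.8 and 56.1 CPM in control and from 59.4 to 74.1 CPM with a median of 68.7 in dosed libraries. The rise of Clock was small (0.34 ± 0.07, edgeR adjusted p = 0.0247), although the groups did not overlap. Npas2, a relative of Clock that also pairs with BMAL1, did not pass the test (0.68 ± 0.23, edgeR adjusted p = 0.115). On the FPKM scale, which allows for gene length, mean Arntl was 0.467 ± 0.0565 in the controls, rising to 1.94 ± 0.231 after tamoxifen and 1.8 ± 0.176 after tamoxifen with primidone (SD, n = 3), and mean Clock was higher than Arntl on this scale, at 5.29 ± 0.161 in control libraries.

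The Period genes encode repressors of BMAL1 and CLOCK. Per3 was at 46.7, 50.2 and 39.1 CPM in the controls and from 8.25 to 14.1 CPM with a median of 9.05 after neonatal tamoxifen. The highest dosed library, tamoxifen+primidone 1, was still far below the lowest control, and Per3 fell by 2.19 ± 0.16 on the log2 scale (edgeR adjusted p = 0.000303). Per2 was at 65.7, 57.5 and 58.4 CPM in controls, 29, 21.3 and 40.4 after tamoxifen and 20.2, 18.2 and 25.6 after tamoxifen with primidone. The groups did not overlap, tamoxifen 3 lay closest to control, and the log2 fold change was −1.25 ± 0.18 (edgeR adjusted p = 0.00837). Per1 was at 39.5, 36.4 and 33.2 CPM in control and from 17.8 to 39.5 CPM with a median of 26.1 in dosed libraries, its ranges overlapped, and it did not pass (edgeR adjusted p = 0.297). Of the cryptochromes, repressors that act with PER, Cry2 fell from 38, 43.5 and 30.7 CPM to a dosed range from 18.5 to 27.9 CPM with a median of 19.4 (log2 fold change −0.84 ± 0.14, edgeR adjusted p = 0.0145). Cry1 gave 0.41 ± 0.17 and did not pass (edgeR adjusted p = 0.188).

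A second arm of the loop runs through the nuclear receptors REV-ERB (Nr1d1, Nr1d2), which repress Arntl. Nr1d2 was at 105, 117 and 103 CPM in control, 25.2, 38.9 and 26.5 in tamoxifen and 58, 27.3 and 24.8 in primidone-treated dosed libraries, with no overlap (−1.71 ± 0.26, edgeR adjusted p = 0.0139). Tamoxifen+primidone 1 was the highest of the dosed libraries for Nr1d2, and for Nr1d1 its value of 84.2 CPM lay within the control values of 108, 106 and 69.9 CPM. Nr1d1 did not pass (−1.38 ± 0.36, edgeR adjusted p = 0.0676). Ciart, a repressor of BMAL1 and CLOCK, had few reads, at 4.65, 4.95 and 2.16 CPM in the controls and from 0.308 to 0.801 CPM with a median of 0.608 in dosed uteri. Its log2 fold change was −2.80 ± 0.37 (edgeR adjusted p = 0.00467). Bhlhe41 (DEC2), which competes for E-boxes, was at 26.1, 27.8 and 24.3 CPM in controls and from 4.83 to 11.5 CPM with a median of 8.8 in dosed libraries, again without overlap (−1.72 ± 0.18, edgeR adjusted p = 0.00173). Its relative Bhlhe40 also fell (−0.37 ± 0.08, edgeR adjusted p = 0.0315), but the tamoxifen libraries at 257, 301 and 238 CPM overlapped the controls, which were at 284, 271 and 288 CPM, while the tamoxifen+primidone libraries at 171, 188 and 172 CPM lay below them.

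Among the output genes, the 3 PAR bZIP factors, which bind D-boxes, fell together. Dbp was at 136, 149.6 and 100.3 CPM in controls, 16.5, 21.4 and 14.3 in tamoxifen and 45.6, 20.7 and 22.4 in tamoxifen+primidone libraries. Tamoxifen+primidone 1 stood above the other dosed libraries but below every control, and Dbp fell by 2.51 ± 0.25 on the log2 scale (edgeR adjusted p = 0.00287). Tef was at 134, 135 and 116 CPM in controls and from 32.8 to 57.1 CPM with a median of 35.3 in dosed libraries (−1.72 ± 0.16, edgeR adjusted p = 0.00148). Hlf was at 22, 26.1 and 18.8 CPM and from 4.68 to 11.7 CPM with a median of 5.7 (−1.74 ± 0.26, edgeR adjusted p = 0.0114), and neither gene overlapped between groups. Nfil3, a repressor of the same D-boxes, moved the other way, from 8.49, 5.25 and 10.1 CPM in controls to a dosed range from 14 to 30.3 CPM with a median of 18.9 (1.31 ± 0.24, edgeR adjusted p = 0.0176). Noct, a rhythmic phosphatase of nicotinamide dinucleotides, also rose (1.06 ± 0.22, edgeR adjusted p = 0.0253). Wee1, a kinase that holds back entry into mitosis, was at 24.8, 23.6 and 24.9 CPM in controls and from 10.1 to 16.9 CPM with a median of 12.5 in dosed libraries. The dosed values were all below control, lowest in the tamoxifen group (−0.93 ± 0.09, edgeR adjusted p = 0.00148). Usp2, Cys1, Coq10b and the tetraspanin Tspan4 were lower too, by 0.91 ± 0.17, 1.12 ± 0.20, 0.56 ± 0.13 and 0.76 ± 0.07 on the log2 scale. Por, the cytochrome P450 reductase, passed at −0.31 ± 0.07, although its tamoxifen libraries (308, 327 and 284 CPM) overlapped the controls (304, 337 and 304 CPM).

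The calls of Arntl, Per2, Per3, Ciart, Bhlhe41, Dbp, Tef, Wee1 and Tspan4 held with each of the 9 libraries left out, with a highest edgeR adjusted p from 0.00251 for Arntl to 0.0475 for Per2. Hlf and Nfil3 lost the call without control 1 (0.0516 and 0.0758 in edgeR). Cry2 lost it without control 1 or 2 (up to 0.0688), Nr1d2 and Cys1 without control 1 or 3 (up to 0.0618 and 0.0893), and Noct without control 1, control 2 or tamoxifen 3 (up to 0.116). Clock and Usp2 lost it without any 1 of the controls (up to 0.113 and 0.0839). Bhlhe40 and Coq10b lost it without any control and without tamoxifen 1, and also without tamoxifen 3 for Bhlhe40 and tamoxifen 2 for Coq10b (up to 0.124 and 0.155). Por lost it without any control, tamoxifen 1 or 3, or tamoxifen+primidone 2 or 3 (up to 0.158). Cipc, a further partner of CLOCK outside both lists and chosen after its values were seen, fell by 0.65 ± 0.09 on the log2 scale (edgeR adjusted p = 0.00475) and kept its call throughout.

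**Figure D2:**
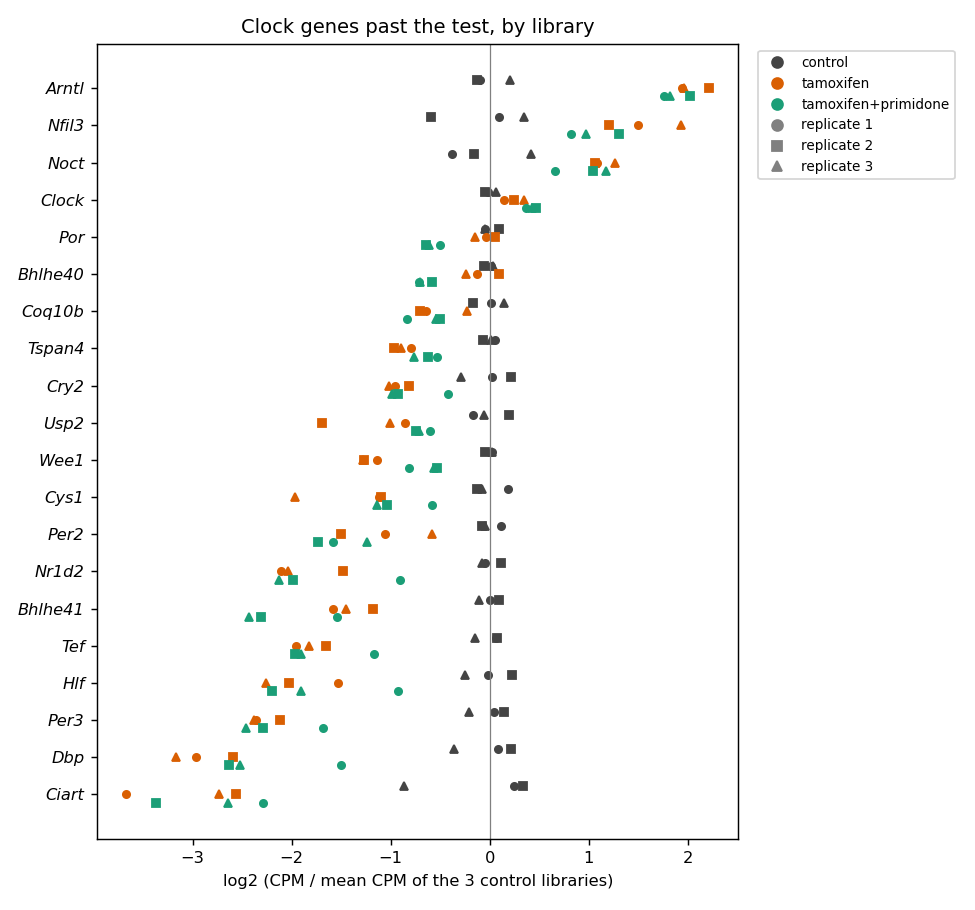
Levels of 20 clock list genes past the test in each of the 9 libraries, as log2 of CPM over the mean of the 3 controls, with colours for groups and shapes for replicates. Arntl, Nfil3, Noct and Clock lie to the right of control in every dosed library, and the others lie to the left, except that Por and Bhlhe40 overlap control in the tamoxifen group. Tamoxifen+primidone 1 is the dosed library nearest to control for Dbp, Tef, Hlf, Per3, Nr1d2 and Cry2.

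The cold-inducible RNA-binding proteins, which have been tied to clock amplitude, were also lower. Cirbp was at 83.6, 81 and 69.9 CPM in controls and from 30.7 to 47.1 CPM with a median of 41.7 in dosed libraries, and Rbm3 was at 289, 282 and 292 CPM and from 135 to 199 CPM with a median of 163. Neither overlapped between groups, and their log2 fold changes were −0.94 ± 0.11 (edgeR adjusted p = 0.00311) and −0.80 ± 0.09 (edgeR adjusted p = 0.00187). Both kept the call with each library left out. They belong to the list of immediate early and heat shock genes, of which 2 of 22 tested members were higher and 4 lower, against 1.82% and 3.04% of all genes. The other calls were the stress-induced factor Atf3 (0.77 ± 0.13, edgeR adjusted p = 0.0148) and the chaperone Hsph1 (1.63 ± 0.35) among the higher, and Junb (−0.56 ± 0.11) and Ier2 (−0.39 ± 0.09) among the lower. Without control 1, 2 or 3 the list kept 0, 0 and 1 higher and 2, 2 and 2 lower members, and without tamoxifen 3 it kept 1 higher member. Atf3 lost its call without control 1 or 2 (up to 0.0767), Junb without any control (0.0902), Hsph1 without any control, tamoxifen 1 or tamoxifen 3 (0.139), and Ier2 without any library but tamoxifen 3 (0.184).

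Genes of mitosis were lower in the dosed uteri, although not to the same level in every library. All 30 members of the mitosis list had a negative log2 fold change, with a list median of −1.31. Of them, 12 passed the test (3.04% of all genes were called lower) and 16 were below control in all 6 dosed libraries (6.57% of all genes were). DESeq2 called 24. The summed level of the list was 479.4, 538.2 and 637.7 CPM in the controls and 179.2, 144.3 and 149.8 CPM in the tamoxifen libraries. In the tamoxifen+primidone group it was 149.5 CPM in replicate 1 but 500.8 and 412.2 CPM in replicates 2 and 3, of which replicate 2 lay within the control range and replicate 3 just below it. The list medians were −1.93 for the tamoxifen and −0.74 for the tamoxifen+primidone group, against the same controls.

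A promoter element known from genes that peak in late cell cycle, the CHR (TTTGAA, both strands), was found in the 250 bases before the start of 11 of 26 mitosis genes with a RefSeq promoter (42.3%), in 3 of the 11 called ones (27.3%) and in 18.3% of all 27025 genes. It is shown in capitals for the anaphase activator Cdc20 (chr4:118437344-118437423, minus strand) and the ubiquitin-conjugating enzyme Ube2c (chr2:164769849-164769928, plus strand), each ending at the base before the start on GRCm38.p6.
Cdc20: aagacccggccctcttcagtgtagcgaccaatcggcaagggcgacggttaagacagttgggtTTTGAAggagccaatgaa
Ube2c: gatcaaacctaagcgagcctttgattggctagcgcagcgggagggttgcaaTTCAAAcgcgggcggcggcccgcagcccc
Ube2c carries the element on the opposite strand, so it reads as TTCAAA on the printed strand.

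Cdc20 was at 22.2, 28 and 28.2 CPM in controls, 6.6, 6.01 and 5.52 in tamoxifen and 5.89, 19.4 and 16.6 in tamoxifen+primidone libraries. It was low in 4 dosed libraries and nearer to control in tamoxifen+primidone 2 and 3, with no overlap (−1.51 ± 0.29, edgeR adjusted p = 0.0251). Ube2c showed the same arrangement, at 25.1, 24.2 and 31.4 CPM, then 7.96, 4.69 and 5.83, then 5.66, 16.9 and 17.1 CPM (−1.57 ± 0.31, edgeR adjusted p = 0.0277). Cdca3, a trigger of mitotic entry, was at 11.7, 11.5 and 18.2 CPM in controls and from 1.82 to 7.12 CPM with a median of 3.1 in dosed libraries (−1.87 ± 0.31, edgeR adjusted p = 0.0149). The largest dosed values of all 3 genes came from tamoxifen+primidone 2 or 3. The cyclin Ccnb2 (−1.77 ± 0.34), the centromeric histone Cenpa (−1.46 ± 0.25) and the kinesin Kif20a (−1.51 ± 0.27) fell as well, with edgeR adjusted p of 0.0247, 0.0139 and 0.0196. Mki67, which encodes the proliferation marker Ki-67, was at 58.7, 68.7 and 89.5 CPM, then 23.6, 24.2 and 23.7, then 25.3, 71.1 and 60.9 CPM, and did not pass, with overlapping ranges (−1.03 ± 0.28, edgeR adjusted p = 0.0703). Aspm, a spindle pole protein outside the list that was chosen after its values were seen, fell by 1.63 ± 0.22 on the log2 scale (edgeR adjusted p = 0.00588) and kept its call with each library left out.

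The count of 12 mitosis genes was sensitive to single libraries. It was 0, 1 and 0 without control 1, 2 and 3, and 5, 6 and 3 without tamoxifen 1, 2 and 3. The highest adjusted p of a left-out fit was 0.0748 for Cdca3, 0.0621 for Cenpa, 0.0888 for Kif20a, 0.0987 for Ccnb2, 0.103 for Cdc20 and 0.113 for Ube2c in edgeR, each without control 3. The count rose to 25 without tamoxifen+primidone 1 and to 19 without tamoxifen+primidone 2, and was 8 without tamoxifen+primidone 3. The DNA replication list, which covers the preceding S phase, differed from the mitosis list in its median and summed level. None of its 30 members passed in edgeR (0 higher and 0 lower, with 1 and 0 at an unadjusted p under 0.05, and 0 and 0 in DESeq2). Since edgeR called 1.82% of all genes higher and 3.04% lower, 0 of 30 is near those shares. The median log2 fold change of the DNA replication list was 0.12. Its summed level was 509.5, 501.3 and 551.3 CPM in controls, 414.5 to 468.0 CPM in tamoxifen libraries, and 465.3, 874.5 and 852.3 CPM across the tamoxifen+primidone replicates. Tamoxifen+primidone 2 and 3 thus exceeded every control for this list. Pcna, the replication clamp, was at 64.2, 65.3 and 66.2 CPM in controls, and at 69.1, 95.3 and 101 CPM in the tamoxifen+primidone libraries.

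**Figure D3:**
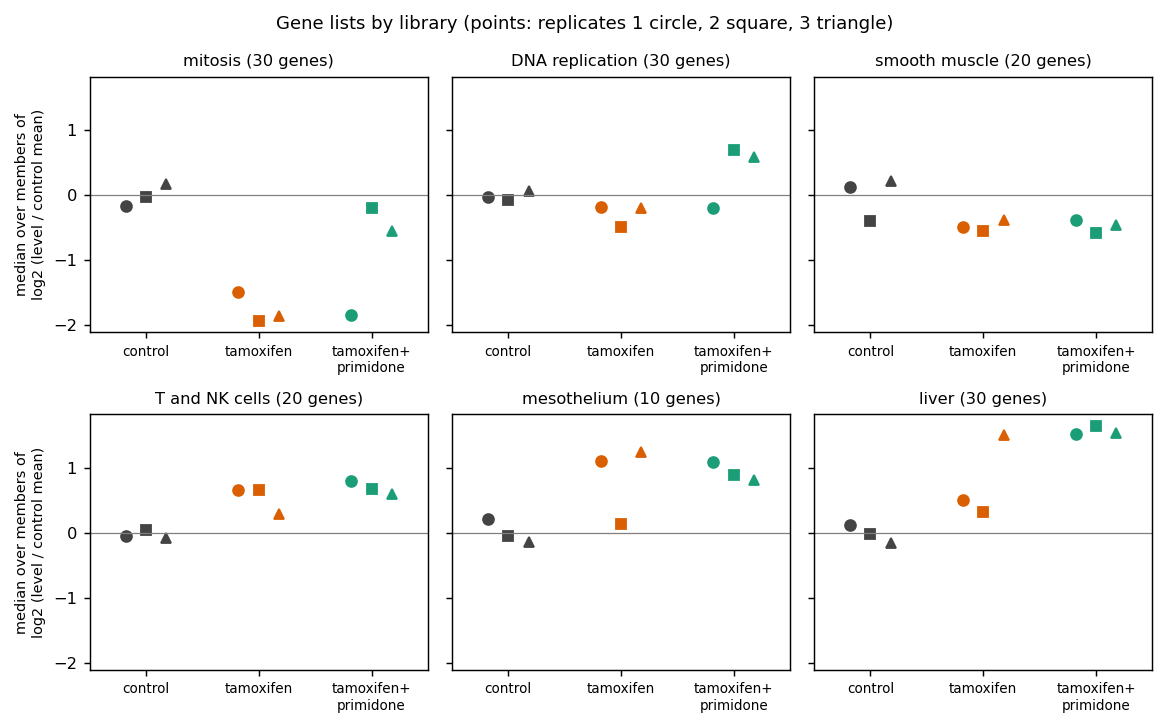
Median over the members of 6 gene lists of log2 level relative to the control mean, for each of the 9 libraries by group (replicates 1, 2 and 3 as circle, square and triangle). Mitosis is low in the tamoxifen libraries and tamoxifen+primidone 1 and nearer to control in tamoxifen+primidone 2 and 3, which are above control for DNA replication. Control 2 lies beside the dosed libraries for smooth muscle, and the liver list is above control in all 6 dosed libraries.

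Of 20 tested members of the elastic fibre list, 3 were higher (Eln, Fbn2 and Mfap5) and 0 were lower, against 1.82% and 3.04% of all genes. The list median was 0.12, and 6 members had a negative log2 fold change. Eln, which encodes elastin, was at 94, 66 and 76.2 CPM in controls and from 118 to 273 CPM with a median of 199 in dosed libraries, and Fbn2, a fibrillin of the microfibril scaffold, was at 15.5, 11.6 and 12.8 CPM and from 19.1 to 46.2 CPM with a median of 30.2. The lowest dosed value of both genes came from tamoxifen+primidone 1 and was still above every control. The log2 fold changes were 1.33 ± 0.20 (edgeR adjusted p = 0.0127) and 1.20 ± 0.18 (edgeR adjusted p = 0.00926). Mfap5, a microfibril protein, rose by less (0.47 ± 0.10, edgeR adjusted p = 0.0319). Eln and Fbn2 lost the call without control 3 (0.0686 and 0.0548 in edgeR), and Mfap5 lost it without control 1, control 3, tamoxifen 1, tamoxifen 2 or tamoxifen+primidone 2 (up to 0.108). Without control 1, 2 and 3 the list kept 2, 3 and 0 members.

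No collagen gene of the collagen and fibrosis list passed in either direction in edgeR. Of its 35 tested members, 0 were higher and 1 was lower in edgeR, against 1.82% and 3.04% of all genes. Higher members numbered 4 at an unadjusted p under 0.05 and 1 in DESeq2. The single member called lower was Timp3, an inhibitor of matrix metalloproteinases, at 325, 312 and 301 CPM in controls and from 215 to 273 CPM with a median of 234 in dosed libraries (−0.40 ± 0.08, edgeR adjusted p = 0.0199). Its call ended without any 1 of the controls (up to 0.101). Outside the list, and picked after their values were seen, the collagen genes Col5a3, Col6a6 and Col8a2 were called higher (0.84 ± 0.18, 0.75 ± 0.15 and 0.61 ± 0.13, edgeR adjusted p = 0.0337, 0.0215 and 0.0295). Col6a6 lost its call without control 2 or 3, the other two without any control, Col5a3 also without tamoxifen 2 or 3 or tamoxifen+primidone 2, and Col8a2 without tamoxifen 1 or 3 (up to 0.0821, 0.13 and 0.125 in edgeR for Col6a6, Col5a3 and Col8a2). P4ha1 and P4ha2, catalytic subunits of collagen prolyl 4-hydroxylase in the hypoxia and glycolysis list, both rose. P4ha1 was at 38.2, 34.8 and 36.3 CPM in controls and from 55.9 to 83.9 CPM with a median of 69 in dosed libraries, with no overlap (0.94 ± 0.11, edgeR adjusted p = 0.00311). P4ha2 gave 0.92 ± 0.14 (edgeR adjusted p = 0.00846), and both held with each library left out. Serpinh1, the collagen chaperone HSP47, was at 496, 429 and 427 CPM and from 590.2 to 951 CPM with a median of 651 (0.65 ± 0.15, edgeR adjusted p = 0.0416), a call that ended without any control, tamoxifen 1 or tamoxifen 3 (up to 0.153).

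The hypoxia and glycolysis list held 3 further calls. Of 28 tested, 4 were higher, P4ha1 and P4ha2 among them, and 1 was lower, against 1.82% and 3.04% of all genes. DESeq2 called 9 higher, and limma on log2(FPKM + 1) called 0 lower. The median was 0.53 for the tamoxifen but −0.04 for the tamoxifen+primidone group against the same controls. Hk2, a hexokinase, was at 27.2, 25.6 and 33.2 CPM in controls, 70.5, 101 and 81.3 in tamoxifen and 31.6, 57.3 and 57.5 in tamoxifen+primidone libraries, of which replicate 1 overlapped control (1.16 ± 0.21, edgeR adjusted p = 0.0199). Aldoc, an aldolase, was at 21.5, 31.2 and 19.8 CPM, then 61.1, 54.4 and 47.3, then 27.7, 32.2 and 34.3 CPM, also with overlap (0.77 ± 0.15, edgeR adjusted p = 0.0237). The member called lower was Ddit4, an inhibitor of mTORC1 (−0.52 ± 0.12, edgeR adjusted p = 0.0359). These 3 calls each ended without control 1 or control 3, with values up to 0.0953 for Hk2, 0.112 for Aldoc and 0.151 for Ddit4. Hk2 also lost it without control 2, and Ddit4 without control 2, tamoxifen 1 or tamoxifen+primidone 2 or 3. Members called higher numbered 2, 3 and 2 without control 1, 2 and 3, and 6 without tamoxifen+primidone 1.

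Contractile genes of smooth muscle were lower. Actg2, the enteric smooth muscle actin, was at 887, 562 and 1073 CPM in controls and from 326 to 533 CPM with a median of 397 in dosed libraries, and Myh11, the smooth muscle myosin heavy chain, at 2225, 1593 and 2216 CPM and from 1149 to 1514 CPM with a median of 1248. The groups did not overlap for either gene, but control 2 lay close to the dosed libraries. The log2 fold changes were −1.03 ± 0.18 (edgeR adjusted p = 0.0173) and −0.64 ± 0.13 (edgeR adjusted p = 0.0252). Tpm2, Cnn1 and Myl9 fell too, at −0.73 ± 0.16, −0.69 ± 0.15 and −0.56 ± 0.13, and the ranges of Myl9 overlapped between control 2 and tamoxifen+primidone 1. With Actg2 and Myh11 they made up the 5 called lower of 20 tested members, against 3.04% of all genes. DESeq2 called 11 and limma on log2(FPKM + 1) called 2. The list median was −0.45, and the summed level was 17540, 11990 and 18640 CPM in controls and from 9939 to 12200 CPM in dosed libraries, so control 2 fell within the dosed range. Actg2 lost its call without control 1 or 3 (up to 0.0805 in edgeR), and Myh11 also without tamoxifen 1 (up to 0.122). Without control 2 the called members numbered 10, and without control 1 or control 3 they numbered 0. Without tamoxifen 1 or 2, or tamoxifen+primidone 2, they numbered 1, 2 and 2, and without tamoxifen 3 they numbered 3.

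**Figure D4:**
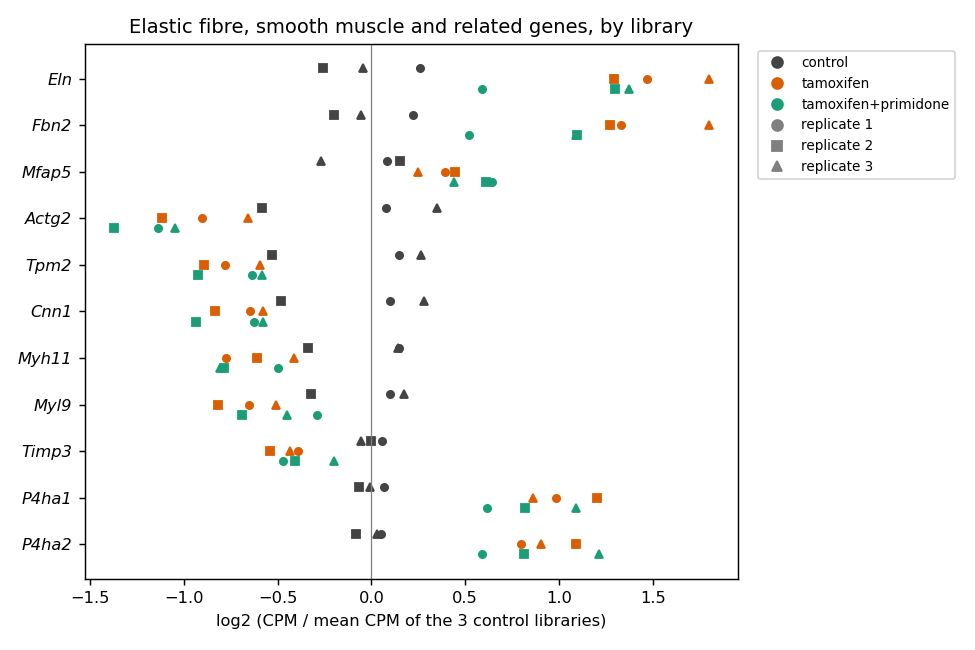
Levels of elastic fibre genes (Eln, Fbn2, Mfap5), contractile genes of smooth muscle (Actg2, Tpm2, Cnn1, Myh11, Myl9), Timp3 and the prolyl 4-hydroxylases P4ha1 and P4ha2 in each library, as log2 of CPM over the control mean. Elastic fibre genes lie right of every control in all 6 dosed libraries, with tamoxifen+primidone 1 lowest for Eln and Fbn2, and control 2 (dark square) is the control closest to the dosed libraries for each of the 5 contractile genes.

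Hormone receptors and most of their known targets did not pass. Esr1, the estrogen receptor, was at 349, 365 and 348 CPM in controls and from 276 to 352 CPM with a median of 305 in dosed libraries (−0.18 ± 0.07, edgeR adjusted p = 0.165), and Pgr, the progesterone receptor, gave −0.19 ± 0.10 (edgeR adjusted p = 0.304). The ranges of both overlapped. Of 32 tested estrogen-responsive genes, 1 was higher and 3 were lower in edgeR, where 1.82% and 3.04% of all genes were. DESeq2 called 4 and 8, where it called 873 and 953 of 15181 genes, and limma on log2(FPKM + 1) called 1 and 1. Greb1, a target and cofactor of the receptor, was at 98.6, 92.3 and 119 CPM in controls and from 34.2 to 79.7 CPM with a median of 51.7 in dosed libraries (−0.94 ± 0.21, edgeR adjusted p = 0.04). Clca1, a secreted protein of mucus, was at 28253, 23359 and 30331 CPM and from 9391 to 20035 CPM with a median of 15636, all below control and lowest in tamoxifen+primidone 1 (−0.82 ± 0.20, edgeR adjusted p = 0.0493). Gjb2, a connexin, also fell (−0.54 ± 0.13). Sprr2f passed as higher (0.64 ± 0.15, edgeR adjusted p = 0.0443), with 2724, 3106 and 2442 CPM in tamoxifen libraries against 1246, 1326 and 1178 CPM in controls, whereas the tamoxifen+primidone libraries at 1003, 1692 and 1428 CPM overlapped control. Reads of Sprr2f may be split among its close relatives. None of the 4 calls held without control 1, 2 or 3 in turn, with edgeR adjusted p up to 0.174 for Clca1, 0.152 for Greb1, 0.159 for Sprr2f and 0.157 for Gjb2, and each ended without tamoxifen 1 or 2 as well. Clca1, Gjb2 and Sprr2f also lost the call without tamoxifen 3, Gjb2 without tamoxifen+primidone 1 or 2, Sprr2f without tamoxifen+primidone 2 or 3, and Clca1 and Greb1 without tamoxifen+primidone 3.

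Srd5a2, the steroid 5-alpha reductase, was the 1 called gene of 22 in the steroid list, where 3.04% of all genes were called lower. It was at 2.33, 2.84 and 1.83 CPM in controls, 1.21, 0.579 and 0.562 in tamoxifen and 0.207, 0.279 and 0.302 in tamoxifen+primidone libraries. All dosed values were below control, with tamoxifen 1 the nearest (−2.35 ± 0.35, edgeR adjusted p = 0.00846), and the call held with each library left out. Dio2, the deiodinase that activates thyroid hormone, was among the genes of highest CPM that rose, from 361, 436 and 318 CPM in controls to a dosed range from 582 to 1009.6 CPM with a median of 946. No dosed value reached down to control (1.24 ± 0.15, edgeR adjusted p = 0.00379), and this call also held with each library left out. Hand2, a stromal factor downstream of the progesterone receptor, was called higher (0.42 ± 0.09, edgeR adjusted p = 0.0253), but its tamoxifen libraries (32.7, 29.7 and 30.6 CPM) overlapped the controls (26.9, 30.9 and 26.4 CPM) and its call ended without control 1, control 3 or tamoxifen 1 (up to 0.12). It was the 1 called member of 18 progesterone-responsive genes and of 20 stromal genes, where 1.82% of all genes were called higher.

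Of 24 tested epithelial genes, 0 were higher and 3 lower in edgeR, against 1.82% and 3.04% of all genes. The counts were 0 and 7 at an unadjusted p under 0.05 and 0 and 6 in DESeq2. The list median was 0.09 for the tamoxifen and −0.28 for the tamoxifen+primidone group, against the same controls. Elf3, an epithelial transcription factor, was at 1073, 1121 and 1049.7 CPM in controls and from 691 to 1002 CPM with a median of 796 in dosed libraries (−0.40 ± 0.08, edgeR adjusted p = 0.0201). Spint1, a protease inhibitor, and Esrp1, a splicing factor of epithelia, gave −0.37 ± 0.07 and −0.27 ± 0.06. All 3 were lower in every dosed library than in every control, and all 3 calls ended without any 1 of the controls (up to 0.0892, 0.0888 and 0.133 in edgeR), that of Esrp1 also without any 1 of the tamoxifen libraries or tamoxifen+primidone 2. Of 14 tested gland genes, 2 were higher and 3 lower, against the same 1.82% and 3.04% of all genes. Limma-voom called 1 and 2, and limma on log2(FPKM + 1) called 2 and 0. The higher members were Calb1 and Ttr, and Ttr, which encodes transthyretin, also belongs to the liver list and is among its called members (1.78 ± 0.30, edgeR adjusted p = 0.0139, lost without control 1 or 3 at up to 0.0717). Calb1, a calcium-binding protein, rose from 5.41, 16.3 and 7.99 CPM to a dosed range from 22.8 to 56.4 CPM with a median of 41.4 (1.98 ± 0.44, edgeR adjusted p = 0.0459), losing its call without control 1 or 3, tamoxifen 1 or 3, or tamoxifen+primidone 2 or 3 (up to 0.16). Sox9, Gpx3 and Ceacam1 were the lower members, at −0.51 ± 0.12, −0.73 ± 0.17 and −0.61 ± 0.15, and each lost its call without control 1 or control 3 (up to 0.179, 0.17 and 0.172). Sox9 also lost it without control 2, any 1 of the tamoxifen libraries or tamoxifen+primidone 1 or 3, Gpx3 without any 1 of the tamoxifen libraries or tamoxifen+primidone 2 or 3, and Ceacam1 without control 2, tamoxifen 1 or 3 or tamoxifen+primidone 2. The gland list kept 0 higher and 0 lower members without control 1 and without control 3, and 1 lower member without control 2. Without tamoxifen 1, 2 and 3 it kept 1, 2 and 1 higher and 0, 1 and 0 lower members, and without tamoxifen+primidone 2 or 3 it kept 1 higher and 1 lower.

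Genes that pattern the Muellerian duct, from which the uterus forms, gave 1 call among 23 tested. In edgeR 0 were higher (3 at an unadjusted p under 0.05, 2 in DESeq2) and 1 was lower, near the 1.82% and 3.04% of all genes, and limma on log2(FPKM + 1) called none. Pax2, a transcription factor of the duct epithelium, was at 63.2, 73.6 and 58.4 CPM in controls and from 47.7 to 53.2 CPM with a median of 50.2 in dosed libraries (−0.37 ± 0.08, edgeR adjusted p = 0.0319), and lost its call without any control, tamoxifen 1 or tamoxifen 3 (up to 0.129). The posterior Hox genes Hoxa10 and Hoxa11 gave 0.09 ± 0.12 and 0.22 ± 0.12, and Wnt7a gave 0.04 ± 0.22, none of which passed (edgeR adjusted p = 0.678, 0.311 and 0.94). Of 23 genes of DNA methylation and Polycomb, 0 were higher in edgeR (2 at an unadjusted p under 0.05, 1 in DESeq2) and 2 were lower, against the same shares of all genes. Bmi1, of Polycomb complex PRC1, was at 80.5, 76.6 and 81.5 CPM and from 58.1 to 67.5 CPM with a median of 61 (−0.36 ± 0.06, edgeR adjusted p = 0.0143). Ezh1, a histone methyltransferase of PRC2, was at 141, 149 and 140.2 CPM and from 79.8 to 117 CPM with a median of 92.9 (−0.57 ± 0.11, edgeR adjusted p = 0.0218). Both were below control in all 6 dosed libraries. Bmi1 lost its call without control 1 or 3 and Ezh1 without any control (up to 0.0746 and 0.0877).

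TRP channels, the family to which the primidone-sensitive channel Trpm3 belongs, had no member past the test in the pooled contrast. The 20 tested members gave no call in edgeR (0 higher and 0 lower, 0 and 3 at an unadjusted p under 0.05, 0 and 0 in DESeq2), and the list median was −0.13. Over all genes, 1.82% were called higher and 3.04% lower in edgeR, and 3507 of 15186 had an unadjusted p under 0.05. Trpm3 itself was low, at 0.627, 0.696 and 0.863 CPM in controls and from 0.102 to 0.785 CPM with a median of 0.489 in dosed libraries, and the ranges overlapped. Interferon response genes gave 0 higher and 0 lower of 22 in edgeR (1 and 0 at an unadjusted p under 0.05, 0 and 0 in DESeq2). Of 26 genes of inflammatory cytokines and prostaglandins, 1 was higher and 2 were lower, against 1.82% and 3.04% of all genes. Limma-voom called 0 and 2, and DESeq2 called 4 and 3. The eotaxin Ccl11 was at 193, 159 and 179 CPM in controls and from 57.6 to 123 CPM with a median of 88.9 in dosed libraries, and the prostaglandin receptor Ptger4 was at 107, 121 and 104 CPM and from 65.2 to 86.4 CPM with a median of 73.5. Both were below control in all 6 dosed libraries (−0.96 ± 0.22, edgeR adjusted p = 0.0442, and −0.57 ± 0.09, edgeR adjusted p = 0.013). Ptges, a prostaglandin E synthase, was higher (0.53 ± 0.13, edgeR adjusted p = 0.0443). Ptger4 lost its call without control 1 or 2, Ptges without any control, tamoxifen 3 or any 1 of the tamoxifen+primidone libraries, and Ccl11 without any library but tamoxifen+primidone 1 (up to 0.0554, 0.154 and 0.158 in edgeR).

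Transcripts typical of liver were higher in the dosed uteri. Of 30 tested members of the liver list, 16 were higher and 1 was lower, against 1.82% and 3.04% of all genes. A positive log2 fold change was found for 29, and the median was 1.47. Their summed level was 428.5 to 462.5 CPM in controls, 566.3 to 836.3 CPM in tamoxifen and 671.1 to 859.1 CPM in tamoxifen+primidone libraries. Alb, which encodes albumin, was at 32.3, 30.8 and 30.7 CPM in controls, 62.1, 56.1 and 101 in tamoxifen and 94.6, 95.8 and 93.5 in tamoxifen+primidone libraries. Every dosed library was above control, with tamoxifen 1 and 2 the lowest of them (1.41 ± 0.17, edgeR adjusted p = 0.00388). Apoa1, the main apolipoprotein of HDL, was at 4.23, 3.69 and 3.83 CPM, then 7.14, 7.39 and 14, then 16.8, 18.2 and 16.8 CPM (1.71 ± 0.23, edgeR adjusted p = 0.00475). Serpina1e, an alpha-1 antitrypsin whose reads may be shared with its copies, gave 2.06 ± 0.26, and Ahsg, the fetuin-A gene, gave 1.51 ± 0.21. Tamoxifen 3 and the tamoxifen+primidone libraries were highest for all 4 genes, and all 4 calls held with each library left out (highest edgeR adjusted p 0.035, 0.0375, 0.0353 and 0.0364). The member called lower was Ass1, an enzyme of arginine synthesis that other tissues share (−0.71 ± 0.15, edgeR adjusted p = 0.0263), which lost its call without any control or tamoxifen 1 (up to 0.119). Called higher members numbered 4, 5 and 4 without control 1, 2 and 3, and 10 without tamoxifen+primidone 2. Whether these transcripts were made in the uterus was not tested.

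Markers of T and natural killer cells were modestly higher. Of 20 tested, 5 passed as higher (1.82% of all genes did) and 8 were above control in all 6 dosed libraries (6.04% of all genes were). Lower members numbered 0 in edgeR (0 at an unadjusted p under 0.05, 0 in DESeq2), and the median was 0.89. The summed level was 129.7 to 138.2 CPM in controls, 144.7 to 170.2 CPM in tamoxifen and 161.8 to 232.9 CPM in tamoxifen+primidone libraries, and no marker was at 0 in all libraries. Il2rb, a receptor subunit for interleukins 2 and 15, was at 11.1, 10.9 and 8.12 CPM in controls and from 15.1 to 25.3 CPM with a median of 22 in dosed libraries. The groups did not overlap (1.07 ± 0.16, edgeR adjusted p = 0.00804), and the call held with each library left out. Nkg7 (granule protein), Eomes (transcription factor) and Cd4 gave 1.29 ± 0.23, 1.48 ± 0.29 and 1.05 ± 0.25. Of these, Nkg7 lost its call without control 1 or 3, Eomes without any control, and Cd4 without any control, tamoxifen 1 or 3 or tamoxifen+primidone 1 or 2 (up to 0.0834, 0.0862 and 0.156 in edgeR). Ncr1, the receptor NKp46, had an edgeR adjusted p just under the threshold and lost its call without 8 of the 9 libraries. DESeq2 called 9 and limma-voom 3. The list kept 1, 2 and 1 members without control 1, 2 and 3, and 3 without tamoxifen 1, tamoxifen+primidone 1 or tamoxifen+primidone 2.

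Of the mesothelium, the cell layer that covers the uterus, 3 of 10 tested markers were higher and 0 lower in edgeR, against 1.82% and 3.04% of all genes. The counts were 9 and 0 at an unadjusted p under 0.05, which 3507 of all 15186 genes had. They were 7 and 0 in DESeq2, which called 873 and 953 of 15181 genes, but limma-voom called 0. Msln, mesothelin, was at 5.7, 3.75 and 5.15 CPM in controls and from 8.69 to 25.9 CPM with a median of 15.7 in dosed libraries, lowest in tamoxifen 2 (1.76 ± 0.32, edgeR adjusted p = 0.0204). Upk3b and Lrrn4 gave 1.66 ± 0.39 and 1.62 ± 0.33. The summed level of the 10 markers overlapped between groups, at 1066 to 1125 CPM in controls and 965.8 to 1375 CPM in dosed libraries. Called members numbered 1, 0 and 0 without control 1, 2 and 3, 1 without tamoxifen 1 and 7 without tamoxifen 2. The mast cell proteases Tpsb2 and Mcpt4 fell (−1.55 ± 0.31 and −1.32 ± 0.26, edgeR adjusted p = 0.0223 and 0.0218). They were 2 of 6 tested mast cell markers, where 3.04% of all genes were lower. The summed level of the mast cell list was 34.99 to 42.63 CPM in controls and 26.8 to 138.6 CPM in dosed libraries. Hdc, the histidine decarboxylase of the same list, lay on the other side, at 9.22, 10.3 and 10.9 CPM in controls and from 12.6 to 118 CPM with a median of 30.5 in dosed libraries. Its 6 dosed values were above control, highest in tamoxifen+primidone 2, and it did not pass (2.01 ± 0.71, edgeR adjusted p = 0.151). The ranges of Mcpt4 overlapped, since tamoxifen+primidone 1 at 3.36 CPM was above control 1 at 2.98 CPM. Neither protease passed without any 1 of the controls (up to 0.0982 and 0.108). The receptor Kit gave 0.09 ± 0.28 and did not pass (edgeR adjusted p = 0.889). Mzb1, a chaperone of antibody-secreting cells, was at 15.3, 15.8 and 18.3 CPM in controls and from 24.9 to 41.8 CPM with a median of 32.7 in dosed libraries (1.01 ± 0.18, edgeR adjusted p = 0.0175). It was the 1 called of 8 B and plasma cell markers, where 1.82% of all genes were higher. Its call ended without any 1 of the controls (up to 0.0888). Of 14 squamous epithelium genes, the keratin Krt6b (2.54 ± 0.54, edgeR adjusted p = 0.032) and the protease Asprv1 (1.59 ± 0.31, edgeR adjusted p = 0.0215) were higher, against 1.82% of all genes. Both lost the call without any 1 of the controls (up to 0.113 and 0.102), Krt6b also without tamoxifen 1 or 3 or tamoxifen+primidone 2.

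No adipocyte marker passed in edgeR (0 higher and 0 lower of 12, with 6 and 0 at an unadjusted p under 0.05 and 6 and 0 in DESeq2), yet the list median was 1.48. Its summed level was 100.7 to 112.5 CPM in controls, while tamoxifen 3 at 347.9 CPM and tamoxifen+primidone 2 at 413.0 CPM stood above the other 4 dosed libraries, which were at 110.6 to 166.3 CPM. Erythroid transcripts gave 0 higher and 0 lower of 6 in edgeR (4 and 0 at an unadjusted p under 0.05, 4 and 0 in DESeq2, 1 and 0 by limma-voom), with a median of 1.5. Endothelial markers had a median of −0.04 with 0 higher and 0 lower of 14 in edgeR (0 and 2 at an unadjusted p under 0.05, 0 and 0 in DESeq2). Macrophage markers gave 0 and 0 of 14 in edgeR (2 and 2 unadjusted, 2 and 2 in DESeq2). Over all genes tested, edgeR called 1.82% higher and 3.04% lower, and 3507 of 15186 had an unadjusted p under 0.05. DESeq2 called 873 higher and 953 lower of 15181. A list of 6 to 14 members without an edgeR call therefore does not stand apart from all genes. The summed level of the erythroid list was 67.6 to 222.9 CPM in controls and 185.5 to 537.7 CPM in dosed libraries, and that of the B and plasma cell list was 1486 to 1568 CPM and 1264 to 2746 CPM. What part the shifts in liver, lymphocyte, mesothelial, adipocyte and erythroid transcripts have in the other results was not tested.

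**Figure D5:**
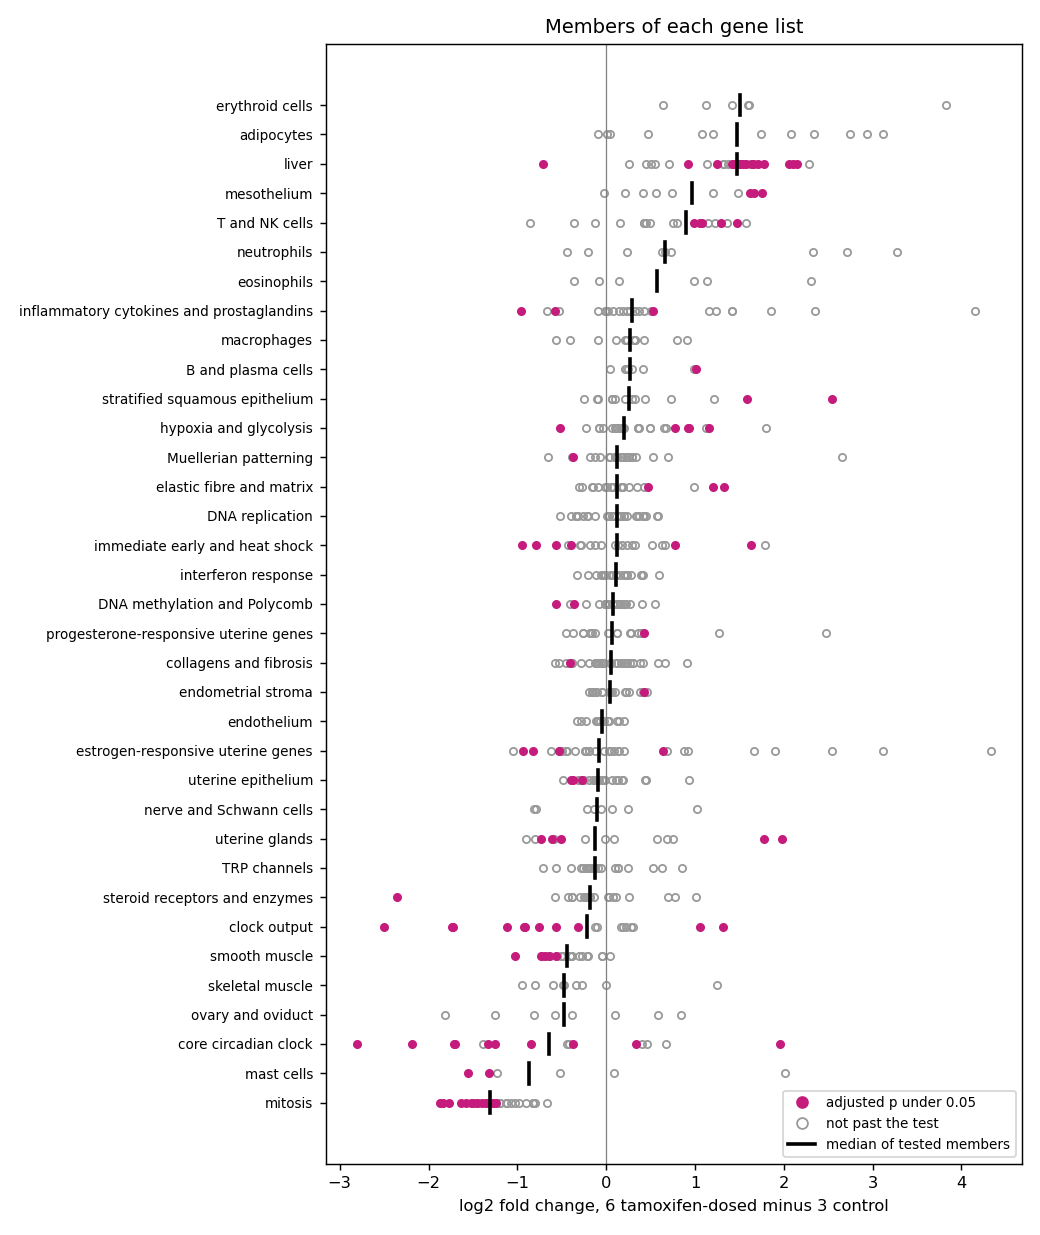
Log2 fold change of the 6 dosed against the 3 control libraries for every tested member of the 35 gene lists, ordered by list median (black bar), with members past the test filled. Mitosis, mast cell and core clock lists have the lowest medians, and erythroid, adipocyte and liver lists have the highest. Of the last 3, 0 of 6, 0 of 12 and 16 of 30 tested members were called higher.

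Among all genes, several of the largest decreases were in genes of low CPM, but Dbp, at 100.3 to 149.6 CPM in controls, was also among them. Genes of largest change or highest CPM were named only among called genes without overlap, so their separation from control was set by that rule. Abcb5, an ABC transporter, was at 4.94, 4.71 and 6.29 CPM in controls and from 0.0256 to 0.654 CPM with a median of 0.0948 in dosed libraries, with tamoxifen+primidone 3 the highest (−5.28 ± 0.60, edgeR adjusted p = 0.00287). Ctse, the aspartic protease cathepsin E, was at 39.8, 18.1 and 67.6 CPM in controls and from 6.95 to 10.6 CPM with a median of 7.89 in dosed libraries. The dosed values were close together although the controls varied widely (−2.33 ± 0.33, edgeR adjusted p = 0.0115). Tinag, a basement membrane glycoprotein, and Psg27, a pregnancy-specific glycoprotein with near relatives, fell by 2.79 ± 0.39 and 2.64 ± 0.35 on the log2 scale. These 4 calls held with each library left out. Topaz1 fell by 2.58 ± 0.40, Gja3, a connexin, by 2.31 ± 0.43, Ly6f by 2.39 ± 0.44, Ifi27l2b by 2.93 ± 0.64, while Glycam1, a mucin-like ligand of L-selectin, gave −4.50 ± 0.78 on the log2 scale. The calls of these 5 ended without control 3 for Topaz1 (0.0574), without control 1 or 3 for Ly6f (0.0984), without control 1 or 2 for Glycam1 (0.0667), without any control for Gja3 (0.0891), and without any control, tamoxifen 3 or tamoxifen+primidone 3 for Ifi27l2b (0.126), where each value is the highest edgeR adjusted p.

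Large increases were also found, named under the same rule. Some were in liver list members, Serpina1e above, Cyp2e1, and Fga, a fibrinogen chain, which was at 3.16, 3.27 and 1.19 CPM in controls and from 5.05 to 15.9 CPM with a median of 14.1 in dosed libraries (2.10 ± 0.41, edgeR adjusted p = 0.0247). Mup14, a major urinary protein outside the lists whose reads may be split among its many copies, was at 0.235, 0.348 and 0.728 CPM and from 0.847 to 3.88 CPM with a median of 1.74 (2.07 ± 0.43, edgeR adjusted p = 0.0252). Both were above control in all 6 dosed libraries, and Fga lost its call without any control and Mup14 without control 1 or 2 (up to 0.0867 and 0.103). Crabp1, a binding protein of retinoic acid, was at 6.11, 9.48 and 3.21 CPM in controls and from 18.3 to 40.5 CPM with a median of 27.2 in dosed libraries, above control in all 6 (2.21 ± 0.39, edgeR adjusted p = 0.0201). Slc5a8, a transporter of short-chain fatty acids, was at 0.941, 1.18 and 0.971 CPM in controls, 23.2, 33.2 and 19 in tamoxifen and 1.22, 9.22 and 6.21 in tamoxifen+primidone libraries. Tamoxifen+primidone 1 was barely above control for Slc5a8 (3.52 ± 0.60, edgeR adjusted p = 0.0185). Klra8, a receptor of natural killer cells of the Ly49 family, was at 0.0523, 0.107 and 0.108 CPM in controls and from 0.511 to 7.85 CPM with a median of 4.76 in dosed libraries. The control values rest on a few reads each, and reads may be split among Klra copies, so its fold (5.56 ± 0.92) is uncertain. Il1f6 (interleukin 36 alpha), the peptide transporter Slc15a1, Entpd3, Samd11 and the cytochrome Cyp2e1 rose by 2.74 ± 0.60, 2.66 ± 0.60, 2.25 ± 0.43, 2.06 ± 0.30 and 2.14 ± 0.50 on the log2 scale. Samd11 lost its call without control 3 alone (0.0515), Crabp1, Entpd3 and Slc15a1 lost theirs without control 1 or 3, Slc5a8 and Klra8 without any control, and Il1f6 and Cyp2e1 without any control or tamoxifen 1, with highest edgeR adjusted p of 0.0953, 0.099, 0.155, 0.0984, 0.0805, 0.158 and 0.17 in that order. Slc15a1 also lost its call without any 1 of the tamoxifen libraries, Il1f6 without tamoxifen 3 and Cyp2e1 without any 1 of the tamoxifen+primidone libraries.

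Genes of high CPM that rose included Igfbp4, a binding protein of insulin-like growth factors, at 496, 453 and 456 CPM in controls and from 570.5 to 897 CPM with a median of 716 in dosed libraries (0.62 ± 0.11, edgeR adjusted p = 0.0152). Scd2, a fatty acid desaturase, Lsp1, an actin-binding protein of leukocytes, and the protease Prss23 gave 0.50 ± 0.10, 0.51 ± 0.12 and 0.55 ± 0.11. Among those that fell were Gsto1, a glutathione transferase, at 1985, 1955 and 2335 CPM in controls and from 998 to 1894 CPM with a median of 1361 in dosed libraries (−0.56 ± 0.11, edgeR adjusted p = 0.0242), the ubiquitin ligase Rnf128 (−0.57 ± 0.13) and Serinc3 (−0.39 ± 0.08). In all 7 the 6 dosed libraries lay outside the control range, which the rule for naming genes of high CPM required. Each of the 7 lost its call without control 3, and all but Prss23 lost it without control 1, with a highest edgeR adjusted p from 0.0785 for Igfbp4 to 0.153 for Rnf128. Igfbp4, Gsto1, Lsp1, Rnf128 and Prss23 also lost it without control 2, Lsp1 and Rnf128 without any 1 of the tamoxifen libraries, Serinc3 without tamoxifen 3 and Rnf128 without tamoxifen+primidone 2. The helicase Ddx17 (0.50 ± 0.09) and the kinase Wnk1 (0.34 ± 0.06) were likewise higher, and the membrane protein Tmem176b (−0.41 ± 0.09) was lower, in all 6 dosed libraries, with edgeR adjusted p of 0.0165, 0.017 and 0.0278. All 3 lost the call without any control, and Tmem176b also without tamoxifen 1 or 2 (up to 0.0791, 0.0933 and 0.131).

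Several of the 76 genes that passed with each library left out belong to no list. These were picked with their values already known. F3, which encodes tissue factor, the starter of blood clotting, was at 269, 249.9 and 279 CPM in controls and from 98.6 to 149.7 CPM with a median of 103 in dosed libraries, with tamoxifen+primidone 1 the nearest to control (−1.26 ± 0.12, edgeR adjusted p = 0.00135). Arl14, a small GTPase, was at 27.6, 29 and 28.8 CPM and from 9.18 to 10.9 CPM with a median of 9.7, tightly grouped on both sides (−1.54 ± 0.09, edgeR adjusted p = 8.48e-05). Cndp1, a carnosine dipeptidase, and Cpt1a, the carnitine palmitoyltransferase that admits fatty acids to mitochondria, fell by 1.39 ± 0.11 and 0.72 ± 0.07 on the log2 scale. Psmc3ip, a factor of meiotic recombination, was at 13.8, 15.3 and 16.4 CPM in controls, 2.08, 2.32 and 2.94 in tamoxifen and 10.6, 10 and 5.21 in tamoxifen+primidone libraries (−1.72 ± 0.21, edgeR adjusted p = 0.00312). Its dosed groups did not overlap each other, and both lay below control. Spon2, a matrix protein, rose from 118, 104 and 118 CPM to a dosed range from 188 to 259 CPM with a median of 226 (1.00 ± 0.09, edgeR adjusted p = 0.00108), and Grb10, an imprinted adaptor that restrains insulin signalling, from 69, 76.8 and 65.5 CPM to a dosed range from 106 to 129.6 CPM with a median of 117 (0.72 ± 0.07, edgeR adjusted p = 0.00135).

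Only 2 genes (0.0132%) differed between the 2 dosed groups in the same fit, with 2096 genes at an unadjusted p under 0.05 and 600 calls in DESeq2. Hgfac, an activator of hepatocyte growth factor, was at 99.6, 88.6 and 119 CPM in controls, 118, 86.1 and 125 in tamoxifen and 35.9, 36.1 and 38.3 in tamoxifen+primidone libraries. It was lower in the tamoxifen+primidone group alone, by 1.57 on the log2 scale below tamoxifen, and its call in the pooled contrast (−0.69 ± 0.12, edgeR adjusted p = 0.0166) therefore does not describe both dosed groups and ended without control 1 or 3 (up to 0.0799 in edgeR). Tmprss11d, a serine protease, was at 20.4, 16.7 and 22.4 CPM, then 39.3, 37.7 and 35.4, then 9.98, 16.2 and 10.1 CPM, so the tamoxifen libraries were above control and the tamoxifen+primidone libraries below it, and the pooled value was 0.10 ± 0.16 (edgeR adjusted p = 0.745). The count of 2 was 0 without control 1, 1 without tamoxifen 1, 17 and 11 without tamoxifen 2 and 3, and 83, 5 and 15 without tamoxifen+primidone 1, 2 and 3. A pooled call with no difference called between the dosed groups does not show that those groups are alike.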

How the data were processed

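RNA sequencing of 9 mouse uteri was analysed. The authors deposited whole-number counts per gene symbol, not normalized, and FPKM values for the same 18094 genes, per the file headers. HISAT2, HTSeq, R 3.2.0, DESeq2 and the build GRCm39 are named per the submitters' processing notes. The sources used here give neither the annotation, nor the other versions, nor the strand setting, so reads of overlapping and antisense genes cannot be told apart. The files give no coordinates, and promoters are RefSeq's on GRCm38.p6, matched by symbol for 514 of 690 list genes.

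Counts were tested in R 4.3.3 with edgeR 4.0.16 (TMM, default filter by group with a minimum count of 10, robust quasi-likelihood), with 1 coefficient per group and the contrast of the mean of both dosed groups minus control, two-sided. P-values were adjusted by Benjamini-Hochberg over 15186 genes. CPM are counts over TMM-scaled library sizes. The SE is the absolute log2 fold change over the square root of F, and is rough at low counts. The procedure was tested on simulated data. Labels do not tie replicates across groups, and p-values set the group difference against the spread between mice within groups, moderated across genes.

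Genes named are, per direction, the 12 with the largest change and the 8 with the highest CPM among called, non-overlapping genes of at least 2 CPM, members from the 4 of smallest p in each list, the called clock genes (1 is counted but not reported here), and others marked as chosen after their values were seen. Further list members are named as examples, and 3 lists were added after the data were seen. The comparison and the 35 lists were chosen with earlier results of these data known. Alternatives used RLE or upper-quartile factors, DESeq2 1.42.0, limma 3.58.1 (voom, and log2 FPKM with a pseudocount of 1 or 0.1), other filters, a design with 1 coefficient for both dosed groups, a replicate block, and leaving out each library.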

Additional observations from a re-analysis of the deposited data

Results flagged for a closer look

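Among 157 called genes screened for a library that stands apart within the 6 dosed uteri, 13 had a highest or lowest library whose gap to the next, divided by the range of the 6, exceeded the 95% critical value of Dixon's test. For 6 draws from a single normal distribution that value flags about 1 in 20 sets. The 6 CPM values here come from both dosed groups, so this rate need not hold. Tamoxifen+primidone 1 was the library apart, and the nearest to control, for Dbp (ratio 0.741), Cry2 (0.702), Tef (0.669), Per3 (0.631), Gja3 (0.695) and F3 (0.732). Tamoxifen+primidone 3 was apart for the chaperone genes Hsph1 (0.819), Ahsa2 (0.659) and Ahsa1 (0.626), with Hsph1 at 287 CPM there against 39.9, 34.6 and 47.8 CPM in controls. The same library was the highest for Abcb5 (0.799) and the lowest for Prss23 (0.669). Tamoxifen 1 was the highest dosed library for Srd5a2 (0.628) and tamoxifen 3 for Ier2 (0.691).

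In 2 genes the dosed groups differed in the test of that difference. The log2 difference of tamoxifen+primidone minus tamoxifen was −1.57 for Hgfac and −1.63 for Tmprss11d. Why these libraries and genes differ was not tested.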

How the results depend on the processing

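Against 277 higher and 462 lower genes, RLE factors gave 284 and 450 (726 of the 739 calls kept), upper-quartile factors 297 and 414 (688 kept), limma-voom 231 and 492, no low-count filter 261 and 441, and a filter of 1 CPM in 3 libraries 296 and 447. DESeq2 gave 873 and 953 and kept all 739. A design with 1 coefficient for both dosed groups gave 163 and 238 (401 kept), and limma on log2(FPKM + 0.1) gave 384 and 298. Leaving out 1 library moved the higher genes from 30 to 387 and the lower from 77 to 568. Of 107 called named genes, 25 passed with each library left out, and 77, 55 and 74 lost the call without control 1, 2 and 3. No called named gene changed direction under any of these alternatives. Between the dosed groups, the 2 calls became 9 with RLE factors, 600 with DESeq2, 21 without the low-count filter, 1 with the 1 CPM filter, 1 with limma on log2(FPKM + 1), and 0 to 83 with a library left out. With the replicate number as a block, 358 genes were higher and 541 lower (647 kept), and 53 differed between the dosed groups. Same-numbered libraries correlated at −0.151 to 0.227 in their deviations from the group means, and not every library correlated best with its own number, so the numbers were not taken as a pairing. The cause of these shifts was not tested, and neither was the part of the fewer samples in a left-out fit. With 3 controls, whether a change is shared by all mice of a group is measured coarsely, and transcripts near 1 CPM rest on few reads.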

Other observations

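A few gene families were examined after some of their members were seen among the calls, so their counts are descriptions. Of 29 tested genes of retinoid transport, synthesis and breakdown, 2 were higher and 4 lower, against 1.82% and 3.04% of all genes. The retinol dehydrogenases Rdh1 and Rdh9, which are close relatives and may share reads, were lower. Rdh1 was at 12.5, 9.13 and 15.9 CPM in controls and from 1.22 to 4.13 CPM with a median of 3.09 in dosed libraries, and Rdh9 was at 10.3, 8.17 and 12.5 CPM and from 1.11 to 3.9 CPM with a median of 3.21. Both were below control in all 6 dosed libraries, at −2.14 ± 0.36 (edgeR adjusted p = 0.0163) and −1.89 ± 0.34 (edgeR adjusted p = 0.0171). Dhrs3, a retinal reductase, and Adh1, an alcohol dehydrogenase, also fell (−0.55 ± 0.10 and −0.71 ± 0.17). The higher members were Crabp1 and Rdh7, the latter at 0.157, 0.241 and 0.216 CPM in controls and from 0.552 to 1.45 CPM with a median of 1.08 in dosed libraries (2.20 ± 0.41). The list kept 0, 3 and 0 lower and 0, 1 and 0 higher members without control 1, 2 and 3.

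Of 24 tested chaperones and co-chaperones, 5 were higher and 0 lower in edgeR, against 1.82% and 3.04% of all genes. The counts were 11 and 0 at an unadjusted p under 0.05 and 8 and 0 in DESeq2, and the median log2 fold change was 0.36. Ppid, a cyclophilin that works with HSP90, was at 31.9, 32.3 and 36.5 CPM in controls and from 44.7 to 70 CPM with a median of 46.7 in dosed libraries (0.61 ± 0.12, edgeR adjusted p = 0.0207). Ahsa1, an activator of the HSP90 ATPase, gave 0.48 ± 0.11, and its relative Ahsa2 gave 0.63 ± 0.14. Tamoxifen+primidone 3 was the highest library for all 3. The list kept 0 members without control 1, 2 or 3, and 1 without tamoxifen 1 or tamoxifen 3.

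Of 20 tested receptors of the Klr family, which natural killer cells carry, 5 were higher and 0 lower in edgeR, against 1.82% and 3.04% of all genes. The counts were 12 and 1 at an unadjusted p under 0.05 and 8 and 0 in DESeq2, while limma-voom called 1 and limma on log2(FPKM + 1) called 2. Klre1 was at 0.209, 0.723 and 0.351 CPM in controls and from 0.946 to 2.64 CPM with a median of 1.92 in dosed libraries (2.07 ± 0.45, edgeR adjusted p = 0.0301). The summed level of the family was 15.6 to 25.1 CPM in controls and 22.5 to 48.6 CPM in dosed libraries, so tamoxifen 3, the lowest dosed library, fell within the control range. Called members numbered 0, 2 and 0 without control 1, 2 and 3, and 2, 3 and 3 without tamoxifen 1, tamoxifen 2 and tamoxifen+primidone 1 or 2.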
